A study of Mus musculus with 6 samples.

Results

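Clu encodes clusterin, also called apolipoprotein J, and was followed here as a single gene among 53599 rows of the count tables. Its reads stand in 1 row, which the tables list as Scara5. Clu was chosen by measured values, as 1 of the most counted rows, so its level, rank and share of counts are given as a description. The RNA came from 6 whole tumours of LG1233-OVA, a murine lung cancer line with OVA, the model antigen ovalbumin. Stable lines were made with CRISPR/Cas9 and either a guide against Uhrf1, labelled a knockout (sgUhrf1, 3 tumours), or a non-targeting guide in cells labelled WT (sgNT, 3 tumours). All 6 tumours share the ovalbumin-bearing parent line and the host: female C57BL/6 mice, of an age not given, received 1000000 cells subcutaneously, and the tumours were taken on day 27. The labels call the samples biological replicates but do not say where the guide cuts, whether a line is 1 clone, or whether each tumour had its own host. RNA of cancer cells and host cells was counted together, so more cells with a transcript and more transcript per cell cannot be told apart.

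Clusterin is a secreted glycoprotein, made as a precursor that is cut into a pair of chains held together by disulfide bonds. Outside the cell it acts as a chaperone that binds misfolded proteins, it inhibits assembly of the terminal complement complex, and it travels in lipoprotein particles. Cells take it up through receptors of the LDL receptor family. In the mouse intestine, Clu marks a rare epithelial cell state that appears after injury, and Yap1 has been placed upstream of that state.

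Clu lies on the plus strand of chromosome 14, from 65968483 to 65981547 in GRCm38. The row listed as Scara5 consists of 12 merged intervals that sum to 6093 bp, and 3 of them lie over Clu exons. They take in 659 bp of Clu exon, 19.2% of the 3437 bp in all annotated Clu exons. On Clu-201, the transcript with 9 exons and 1810 bp, they hold 162 bp of exon 1, which is 5′ untranslated sequence, 81 bp of exon 5, all 176 bp of exon 8 and all 240 bp of exon 9. The other 5434 bp of the row lie in introns of Scara3, Clu and Gulo or over no gene. For scale, 1977 rows list at least 5000 bp over no annotated exon; their median total was 2 counts and their 95th percentile 91.4, whereas the row over Clu held 623009. Such rows do not gauge reads from Clu introns or from just past its end, so the part of the count from the other 5434 bp is not known. No other row touches a Clu exon, and the row that the tables list as Clu lies over Ptk2b and held 541 counts.

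**Figure D1:**
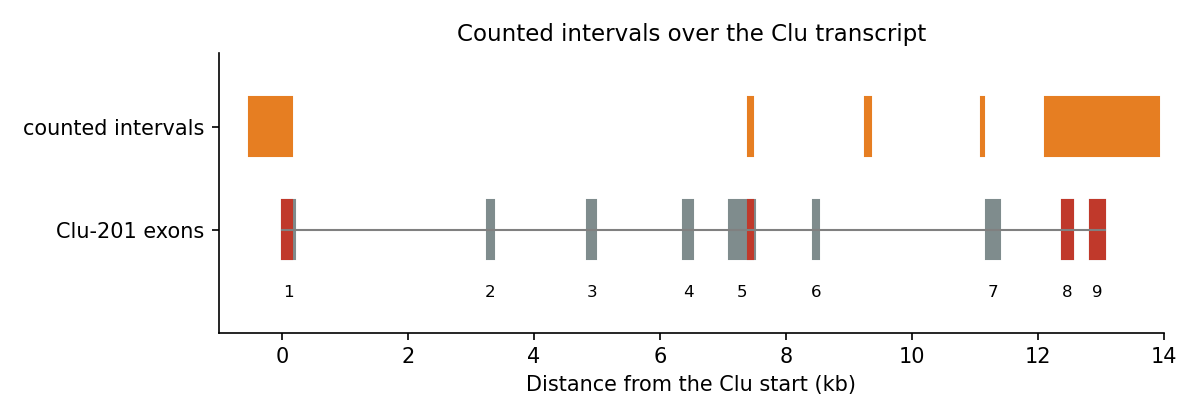
Position of the counted intervals relative to Clu-201, in kb from the start of Clu. Orange boxes are the merged intervals of the row within the window shown, grey boxes are the 9 exons of Clu-201, and red marks the exon bases that were counted: parts of exons 1 and 5 and all of exons 8 and 9.

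The coding bases inside the counted intervals, 264 of the 659 bp of Clu exon, are shown to place the row on Clu. No count per interval was given, so the part of the count from these bases is not known. The bases are read in the sense of the transcript from the GENCODE M21 transcripts of GRCm38. Capitals mark the counted bases. Lower case marks the 30 transcript bases before each stretch and, for exon 5, the bases after it up to the end of the exon. The exon 5 stretch is chr14:65975873-65975953 on the plus strand and covers codons 236 to 263 of 448 in part or whole. The second stretch joins exon 8, chr14:65980854-65981029, to the 7 coding bases at the start of exon 9, chr14:65981308-65981547. Its exon 8 bases hold codons 388 to 446, the last of them in part, since codon 446 is split between exons 8 and 9.
Clu exon 5: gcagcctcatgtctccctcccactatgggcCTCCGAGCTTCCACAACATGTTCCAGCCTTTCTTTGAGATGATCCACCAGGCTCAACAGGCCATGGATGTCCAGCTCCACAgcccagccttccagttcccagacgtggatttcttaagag
Clu exons 8 and 9: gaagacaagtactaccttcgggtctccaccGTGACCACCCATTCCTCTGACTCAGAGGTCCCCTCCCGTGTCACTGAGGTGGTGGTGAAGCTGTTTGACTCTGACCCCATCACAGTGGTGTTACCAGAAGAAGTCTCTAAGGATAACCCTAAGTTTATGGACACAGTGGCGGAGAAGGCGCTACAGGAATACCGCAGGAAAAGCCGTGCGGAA
The first stretch holds 81 counted bases and the second 183, with a GC content of 53.1% and 53.6%, against 54.5% over the whole coding sequence. Counting took no account of strand, so antisense reads inside these intervals would be included.

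Each tumour gave 5462555 to 6375069 counts over 16051 to 18771 rows with at least 1 count. The first principal component held 73.6% of the variance and separated the groups. Skeletal muscle markers stood apart in sgUhrf1 replicate 1 and sgNT replicate 2, the muscle-rich tumours, at a summed 373 and 450 counts per 1000000 TMM-scaled counts (CPM), against 2.47 to 22.7 CPM in the other 4 tumours. The targeted gene, Uhrf1, had 121, 72.6 and 89.5 CPM in sgUhrf1 tumours and 132, 135 and 97.7 CPM in sgNT tumours. These values overlap, and the difference did not pass the test (log2 fold change -0.37 ± 0.23 SE, edgeR adjusted p = 0.227). Because the place of the cut is not given and host cells carry the intact gene, the count does not check the knockout.

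In sgUhrf1 tumours, replicates 1, 2 and 3, the Clu row held 87043, 283937 and 102127 counts. In sgNT tumours, replicates 1, 2 and 3, it held 52922, 45528 and 51452 counts. Replicate 2 of sgUhrf1 stood far above the other 5 tumours, and the lowest sgUhrf1 count was above the highest sgNT count. For comparison, the median row with at least 1 count held 17 to 20 counts per tumour.

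As a share of all counts, Clu made up 1.59% of sgUhrf1 replicate 1 (95% Wilson interval 1.58 to 1.60), 4.45% of replicate 2 (4.44 to 4.47) and 1.82% of replicate 3 (1.81 to 1.83). In sgNT tumours the share was 0.912% in replicate 1 (0.904 to 0.920), 0.716% in replicate 2 (0.710 to 0.723) and 0.925% in replicate 3 (0.917 to 0.933). The intervals cover counting error only; read pairs without molecular identifiers are not independent molecules. They are narrow beside the spread among tumours. The mean share was 2.62% ± 1.59 in sgUhrf1 tumours and 0.851% ± 0.117 in sgNT tumours (SD, n = 3 each). The difference was 1.77 percentage points with all tumours and 0.854 points without sgUhrf1 replicate 2.

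By rank among all rows, Clu was row 2, 1 and 4 in sgUhrf1 replicates 1, 2 and 3, and row 5, 10 and 4 in sgNT replicates 1, 2 and 3. The ranks overlap between groups: row 4 occurs in both. With the rows of the mitochondrial genome set aside, Clu was row 1, 1 and 3 in sgUhrf1 tumours and row 3, 8 and 2 in sgNT tumours. Among genes that have a row of their own, ranked by counts per kb of covered exon, it was gene 2, 1 and 3 in sgUhrf1 tumours and gene 4, 5 and 5 in sgNT tumours.

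**Figure D2:**
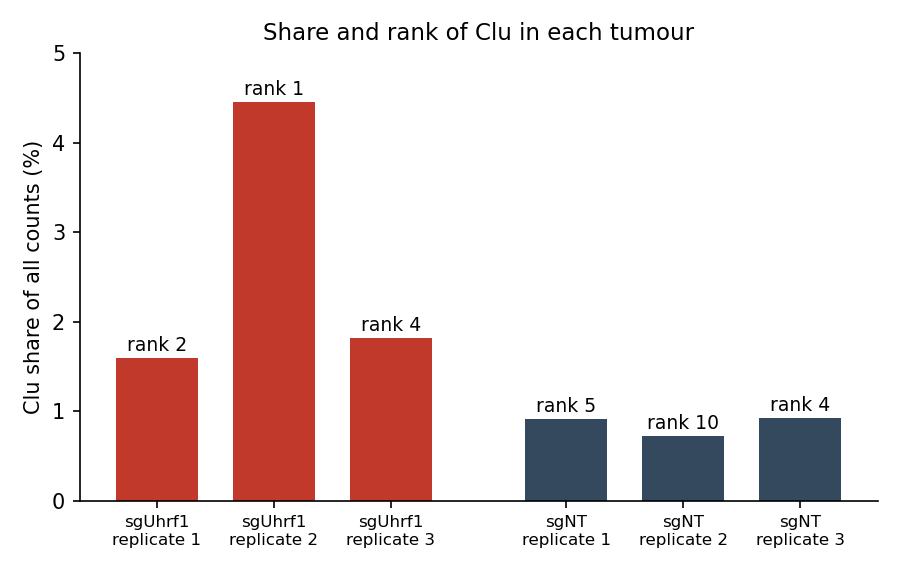
Share of all counts held by the Clu row in each tumour (percent), with its rank among all rows written above the bar; sgUhrf1 tumours are red and sgNT tumours dark blue. The 3 sgUhrf1 tumours stand between 1.59% and 4.45% and the 3 sgNT tumours between 0.716% and 0.925%.

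The rows that surrounded Clu at the top of the tables changed from tumour to tumour. In 5 of the 6 tumours the most counted row was that of mt-Co1, a mitochondrial subunit of cytochrome c oxidase. In sgUhrf1 replicate 2, Clu with 283937 counts stood above mt-Co1 with 233880, and the next row, shared by Krt8 and Gm36026, held 83175. In sgUhrf1 replicate 1, mt-Co1 held 210553 counts, Clu came next, and below it stood Col1a2, a chain of type I collagen, with 85757. In sgUhrf1 replicate 3, Clu stood behind mt-Co1 with 247667, a row shared by Gm16892, 4921517D16Rik and Tbc1d23 with 142082, and Gm42418 with 119581 counts; H2-K1, an MHC class I heavy chain, followed with 76224. H2-K1 was the fifth row in the other sgUhrf1 tumours too, with 68810 counts in replicate 1 and 74240 in replicate 2, below mt-Cytb, the mitochondrial cytochrome b, with 71946 and 74973.

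In sgNT replicate 1, Clu followed mt-Cytb with 87374 counts and stood above mt-Nd1, a subunit of complex I, with 52019. The rows above those were mt-Co1 with 214583, the row shared by Gm16892 with 118888 and Gm42418 with 92368. In sgNT replicate 2, the rows at the top were mt-Co1 with 169637, Gm42418 with 71632, Vim, an intermediate filament protein, with 64419, Fn1, which encodes fibronectin, with 64361, and Col1a2 with 61311. Clu stood there between a row shared by Gys1, Gm10252, Bax and Ftl1 with 52332 counts and the row shared by Gm16892 with 42762. In sgNT replicate 3, mt-Co1 held 221165, Vim 78299 and mt-Cytb 54782, Clu came next, and Fn1 followed with 51308. The Clu count divided by that of mt-Co1 was 0.413, 1.21 and 0.412 in sgUhrf1 tumours and 0.247, 0.268 and 0.233 in sgNT tumours.

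After TMM scaling, Clu stood at 15329, 44835 and 22342 CPM in sgUhrf1 replicates 1, 2 and 3, and at 8336, 6714 and 9071 CPM in sgNT replicates 1, 2 and 3. The lowest sgUhrf1 tumour was 1.69 times the highest sgNT tumour. The log2 fold change was 1.77 ± 0.41 SE, or 3.42-fold (edgeR quasi-likelihood test, adjusted p = 0.00862 over 10503 rows). In the same fit 4188 rows passed in either direction (39.9% of those tested): 2121 were higher in sgUhrf1 tumours (20.2%) and 2067 were lower (19.7%). All 3 sgUhrf1 values lay above all 3 sgNT values in 2791 rows (26.6%). Such a difference was therefore common in these tumours, and the median log2 fold change over all tested rows was 0.02. Among the 123 rows with a mean of at least 1000 CPM, 13 were higher (10.6%), Clu among them, and 19 were lower (15.4%). Without sgUhrf1 replicate 2 the fold change of Clu was 2.32 (log2 1.22, adjusted p = 0.0125). The p-values set the group difference against the spread among these 6 tumours within their groups. The choice of Clu by count level used the same counts, so its test is not independent of the choice.

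**Figure D3:**
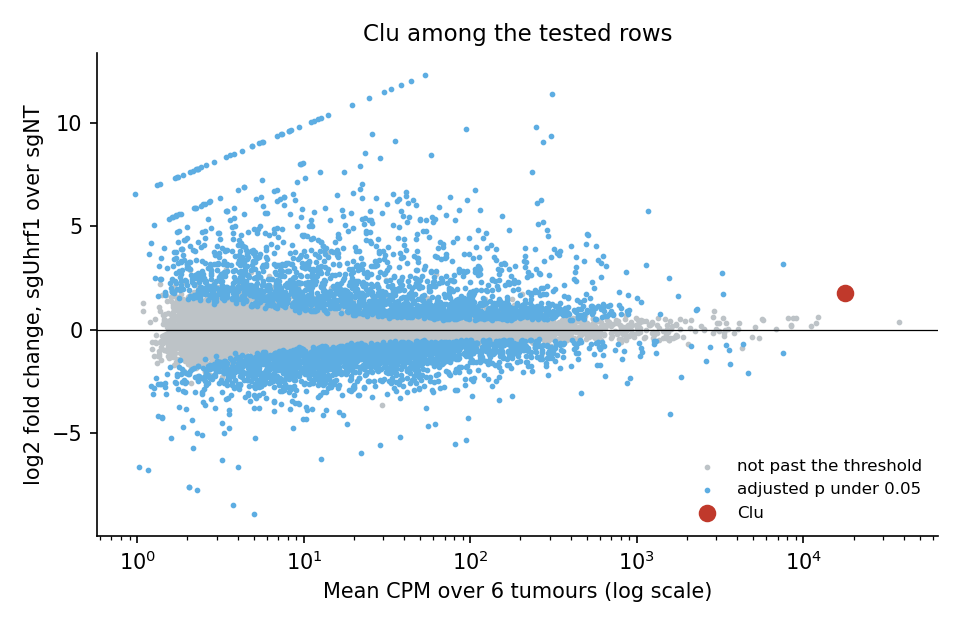
The log2 fold change of sgUhrf1 over sgNT against mean CPM over 6 tumours (log scale) for the 10503 tested rows, with rows at an adjusted p under 0.05 in blue and Clu in red. Clu stands at a log2 fold change of 1.77, to the right of every other row except that of mt-Co1.

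The sgUhrf1 tumours differed among themselves more than the sgNT tumours did in their Clu level. Replicate 2 was 2.93 times replicate 1 and 2.01 times replicate 3, and it held 60.0% of all Clu counts of the group. The level averaged 27502 ± 15415 CPM in sgUhrf1 tumours and 8040 ± 1206 CPM in sgNT tumours (SD, n = 3 each). On the log2 scale the SD was 0.79 in sgUhrf1 tumours, where the median of the 123 rows of at least 1000 CPM was 0.35 and 9 rows (7.32%) had a larger SD. In sgNT tumours it was 0.22, where the median was 0.21 and 51 rows (41.5%) had a larger SD. With 3 tumours a group, the difference in spread was not tested.

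The rows that varied more than Clu among sgUhrf1 tumours included Tff2, which encodes a mucus-associated trefoil peptide, Bgn, Sparc and Col1a2, which encode matrix proteins, and Gm42418. These rows did not share 1 highest tumour with Clu in general. Of the 123 rows, 95 (77.2%) were highest in sgUhrf1 replicate 3, 17 (13.8%) in replicate 2 and 11 (8.94%) in replicate 1. Clu was among the 17 highest in replicate 2. Over all tested rows the shares were 35.5%, 36.6% and 27.9% for replicates 3, 2 and 1. The TMM factor was 1.039, 0.9934 and 0.8135 in sgUhrf1 replicates 1, 2 and 3, and a lower factor raises every CPM of its tumour. The part of this scaling in the shares was not tested.

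**Figure D4:**
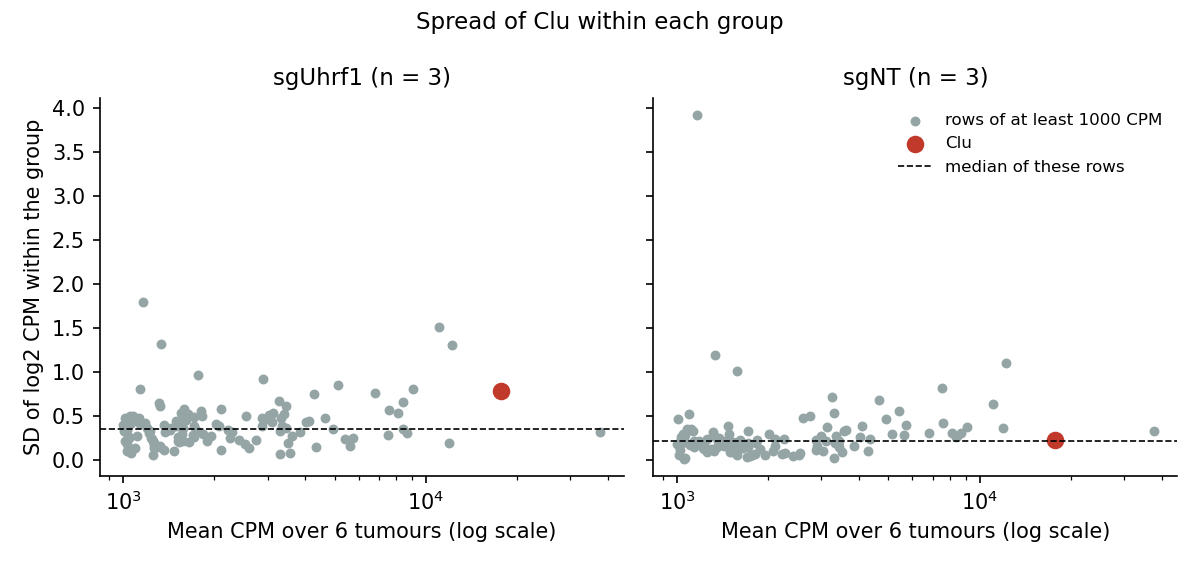
SD of log2 CPM within each group against mean CPM over 6 tumours (log scale) for the 123 rows with a mean of at least 1000 CPM, with sgUhrf1 on the left, sgNT on the right, and a dashed line at the median. Clu, in red, has an SD of 0.79 in sgUhrf1 tumours, above the median of 0.35, and of 0.22 in sgNT tumours, close to the median of 0.21.

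The genes of the lists below were read from rows of their own; of the 4575 tested genes with such a row, 943 were higher in sgUhrf1 tumours (20.6%) and 985 lower (21.5%). Among receptors that bind clusterin, all 5 listed genes had a row and 3 were tested, of which none was higher in sgUhrf1 tumours and 1 was lower. Vldlr, an LDL receptor family member that binds reelin and clusterin, had 10.7, 16.9 and 4.81 CPM in sgUhrf1 tumours and 17.3, 29.9 and 34.9 CPM in sgNT tumours. Its log2 fold change was -1.33 ± 0.44 SE (edgeR adjusted p = 0.0397), with no overlap, but the call was lost in 5 of 16 alternatives (adjusted p 0.0738 to 0.188), when sgUhrf1 replicate 1 or 3, sgNT replicate 2 or 3, or both muscle-rich tumours were left out. Lrp8, also called ApoER2, had 4.58, 6.00 and 9.19 CPM in sgUhrf1 tumours and 5.67, 4.87 and 3.70 CPM in sgNT tumours, and did not pass (log2 0.46 ± 0.41, adjusted p = 0.398). Trem2, a receptor of myeloid cells, had 8.98, 5.21 and 12.5 CPM in sgUhrf1 tumours and 6.30, 5.01 and 1.23 CPM in sgNT tumours, and did not pass either (log2 1.07 ± 0.57, adjusted p = 0.167). Lrp2, the endocytic receptor megalin, held 0 counts in 5 tumours and 2 in sgNT replicate 1. Plxna4, a plexin, held 0 to 1 counts in sgUhrf1 tumours and 3 to 6 in sgNT tumours. Neither was tested.

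Clusterin acts on the complement cascade, and of 26 complement genes listed, 8 had a row of their own, 6 were tested, 3 were higher in sgUhrf1 tumours and none was lower (edgeR adjusted p under 0.05). The median log2 fold change of the 6 was 2.05. C3, the central component, had 370, 370 and 946 CPM in sgUhrf1 tumours and 43.8, 39.4 and 66.8 CPM in sgNT tumours (log2 3.49 ± 0.41, edgeR adjusted p = 0.000477). Serping1, the C1 inhibitor, had 310, 288 and 919 CPM in sgUhrf1 tumours and 43.9, 43.8 and 64.9 CPM in sgNT tumours (log2 3.31 ± 0.46, adjusted p = 0.000883). C4b, the C4 component, had 103, 218 and 509 CPM in sgUhrf1 tumours and 16.1, 27.1 and 47.6 CPM in sgNT tumours (log2 3.19 ± 0.59, adjusted p = 0.00325). Without sgUhrf1 replicate 2, C1qc, a chain of C1q (log2 1.07, adjusted p = 0.00819), and Cfp, properdin (log2 1.10, adjusted p = 0.0129), passed as higher too, which makes 5 of 6. C1qc and Cfp also passed as higher with all tumours and no filter. That fit gave C3 an edgeR adjusted p of 5.10e-42, far below the 0.000477 of the main fit, so the calls it adds are read with caution. C3, Serping1 and C4b were highest in sgUhrf1 replicate 3, while Clu was highest in replicate 2. None of the members that make up the terminal complex was tested in a row of its own except Hc, which encodes C5 (log2 0.90, not past the threshold), and C8a held 0 counts in every tumour.

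No apolipoprotein could be set beside Clu: of 13 listed, none had a row of its own, 6 lay only in shared rows and 7 had no usable row. Of 26 heat shock proteins and chaperones of the endoplasmic reticulum, 7 had a row of their own and were tested; 1 was higher in sgUhrf1 tumours, 1 was lower, and the median log2 fold change was 0.36. Hyou1, an endoplasmic reticulum chaperone, had 72.4, 62.9 and 58.9 CPM in sgUhrf1 tumours and 107, 133 and 132 CPM in sgNT tumours (log2 -0.94 ± 0.18, edgeR adjusted p = 0.00380). Hsf1, the heat shock transcription factor that acts on the Clu promoter, had 307, 242 and 272 CPM in sgUhrf1 tumours and 222, 176 and 180 CPM in sgNT tumours (log2 0.51 ± 0.18, adjusted p = 0.0459). The call of Hsf1 was lost without sgUhrf1 replicate 1 or 3, without sgNT replicate 2 or 3, without both muscle-rich tumours, with library totals only and with no filter (adjusted p 0.0644 to 0.392).

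Of 13 genes that accompany Clu in regenerating gut epithelium, 3 were tested in a row of their own, 2 were higher in sgUhrf1 tumours and none was lower, with a median log2 fold change of 2.30. The third, Areg, did not pass (log2 1.36, edgeR adjusted p = 0.193) and stood at -0.08 without sgUhrf1 replicate 2. Another 3, Anxa1, Anxa3 and Cxadr, lay only in rows shared with other genes. No tested row of these passed (log2 -0.38, -0.14 and 0.15). Basp1, a membrane-associated signalling protein, had 552, 1053 and 1084 CPM in sgUhrf1 tumours and 160, 150 and 234 CPM in sgNT tumours (log2 2.30 ± 0.30, edgeR adjusted p = 0.000722). Il1rn, the interleukin-1 receptor antagonist, had 29.2, 39.5 and 46.8 CPM in sgUhrf1 tumours and 1.73, 1.62 and 0.353 CPM in sgNT tumours (log2 4.91 ± 0.46, adjusted p = 0.000176). Of 15 targets of YAP and TEAD, 6 were tested, none was higher and 3 were lower, with a median of -0.67. Axl, a receptor tyrosine kinase, had 34.2, 18.0 and 25.6 CPM in sgUhrf1 tumours and 164, 297 and 349 CPM in sgNT tumours (log2 -3.38 ± 0.34, adjusted p = 0.000225). Amotl2, an angiomotin family member, fell by 1.24 on the log2 scale (adjusted p = 0.00727), a call lost without the 2 muscle-rich tumours (0.0569). Tead1, a TEAD transcription factor, fell by 1.00 on that scale (adjusted p = 0.0283), a call lost when sgUhrf1 replicate 2 or either of sgNT replicates 2 and 3 was left out (adjusted p 0.0600 to 0.0911).

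Markers of epithelium moved in the same direction as Clu. Of 14 listed, 5 had a row of their own, 4 were tested, 3 were higher in sgUhrf1 tumours and none was lower, with a median log2 fold change of 3.04. The summed level of the 5 was 1684, 2867 and 2154 CPM in sgUhrf1 tumours and 437, 247 and 156 CPM in sgNT tumours, so sgUhrf1 replicate 2 was highest here too. Krt7, a keratin of simple epithelia, had 827, 1417 and 1197 CPM in sgUhrf1 tumours and 188, 86.6 and 19.4 CPM in sgNT tumours (log2 3.55 ± 0.66, edgeR adjusted p = 0.00347). Cdh1, which encodes E-cadherin, had 843, 1374 and 896 CPM in sgUhrf1 tumours and 245, 158 and 134 CPM in sgNT tumours (log2 2.54 ± 0.29, adjusted p = 0.000408). Sftpd, a surfactant protein of lung epithelium, had 8.63, 64.6 and 56.4 CPM in sgUhrf1 tumours and 0.158, 0.737 and 0.176 CPM in sgNT tumours (log2 6.79 ± 0.90, adjusted p = 0.000775). Clu was 9.10, 15.6 and 10.4 times the epithelial sum in sgUhrf1 tumours and 19.1, 27.2 and 58.1 times in sgNT tumours, so it was larger relative to these markers in every sgNT tumour. Relative to the row shared by Krt8 and Gm36026, the order was the reverse: 2.42, 3.41 and 2.40 times in sgUhrf1 tumours and 1.44, 1.19 and 1.10 times in sgNT tumours. That keratin row had 6334, 13134 and 9316 CPM in sgUhrf1 tumours and 5770, 5663 and 8271 CPM in sgNT tumours and did not pass the test (log2 0.55 ± 0.32, edgeR adjusted p = 0.198).

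Among fibroblast markers, 7 genes had a row and 6 were tested, of which 1 was higher in sgUhrf1 tumours and 2 were lower. Their summed level was 15789, 5651 and 12850 CPM in sgUhrf1 tumours and 8071, 9839 and 6058 CPM in sgNT tumours, lowest in the tumour with most Clu. Nearly all of that sum was Col1a2; the other 6 genes summed to 686, 387 and 725 CPM in sgUhrf1 tumours and 613, 798 and 655 CPM in sgNT tumours. Thy1, a surface glycoprotein shared with T cells in the mouse, was higher (log2 0.74 ± 0.22, edgeR adjusted p = 0.0268), while Col5a1, a chain of type V collagen (log2 -1.76 ± 0.39, adjusted p = 0.00713), and Pdgfra, a growth factor receptor (log2 -1.73 ± 0.49, adjusted p = 0.0211), were lower. The call of Thy1 was lost in 7 of 16 alternatives (adjusted p 0.0501 to 0.195), among them leaving out any tumour except sgUhrf1 replicate 2. That of Pdgfra was lost without sgNT replicate 2 and without both muscle-rich tumours (adjusted p 0.0736 to 0.0752). Col1a2 passed as higher without sgUhrf1 replicate 2 (0.0442). Pdgfrb, a related receptor, did not pass the main test (log2 -1.41 ± 0.52, edgeR adjusted p = 0.0551). It passed as lower with DESeq2, limma-voom or no filter, without sgUhrf1 replicate 1, and without both muscle-rich tumours.

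Of 4 tested macrophage markers none was higher and 1 was lower; they summed to 412, 143 and 481 CPM in sgUhrf1 tumours and 230, 277 and 178 CPM in sgNT tumours. The call was that of Mertk, a receptor for dying cells, whose row covers 54 bp (log2 -1.64 ± 0.58, edgeR adjusted p = 0.0492). It was lost in 6 of 16 alternatives (adjusted p 0.0502 to 0.131), among them leaving out sgUhrf1 replicate 1 or any sgNT tumour. C1qc passed as higher without sgUhrf1 replicate 2 and with no filter, the latter with the caution given above. All 4 T cell markers were higher, with sums of 105, 79.3 and 203 CPM in sgUhrf1 tumours and 12.4, 7.23 and 23.3 CPM in sgNT tumours, lowest among sgUhrf1 tumours in replicate 2. They were Lck (log2 3.29 ± 0.62) and Zap70 (2.96 ± 0.54), kinases of T cell receptor signalling, the adaptor Lat (2.70 ± 0.40) and Cd8b1, a chain of the CD8 coreceptor (3.75 ± 0.51).

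None of 5 endothelial, 2 smooth muscle, 2 skeletal muscle and 1 adipocyte marker passed the main edgeR test with all 6 tumours. Some passed when 1 tumour was left out or in another fit. Without sgUhrf1 replicate 2, Pecam1, an endothelial adhesion molecule, was higher (log2 1.10, edgeR adjusted p = 0.0221), as was Myh11, the smooth muscle myosin (log2 1.94, adjusted p = 0.0312). Without sgNT replicate 1, Vwf, which encodes von Willebrand factor, passed as lower, and without sgNT replicate 2, Ckm, the muscle creatine kinase, passed as higher (log2 5.73, adjusted p = 0.0253). With all 6 tumours, DESeq2 called Myh11 higher and Vwf lower. The edgeR fit with no filter, to which the caution given above applies, made the same calls and called Pecam1 higher. In the main fit Tie1, an endothelial receptor, had a log2 fold change of -0.30 and Cspg4, a pericyte proteoglycan, -0.65. Atp2a1, the muscle calcium pump, had -0.06 and Retn, the adipocyte hormone resistin, 0.95.

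Nerve and neuroendocrine markers, 3 genes with a row and none tested, summed to 1.23, 2.53 and 1.31 CPM in sgUhrf1 tumours. In sgNT tumours they summed to 0.473, 1.03 and 0.882 CPM. These sums rest on few counts in each tumour, so their order was not compared with that of Clu. The single own row among B cell and follicular dendritic cell markers was not tested; it stood at 0, 0.158 and 0.656 CPM in sgUhrf1 tumours and 0, 0.295 and 58.0 CPM in sgNT tumours. The part of any cell type in the Clu level was not tested.

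**Figure D5:**
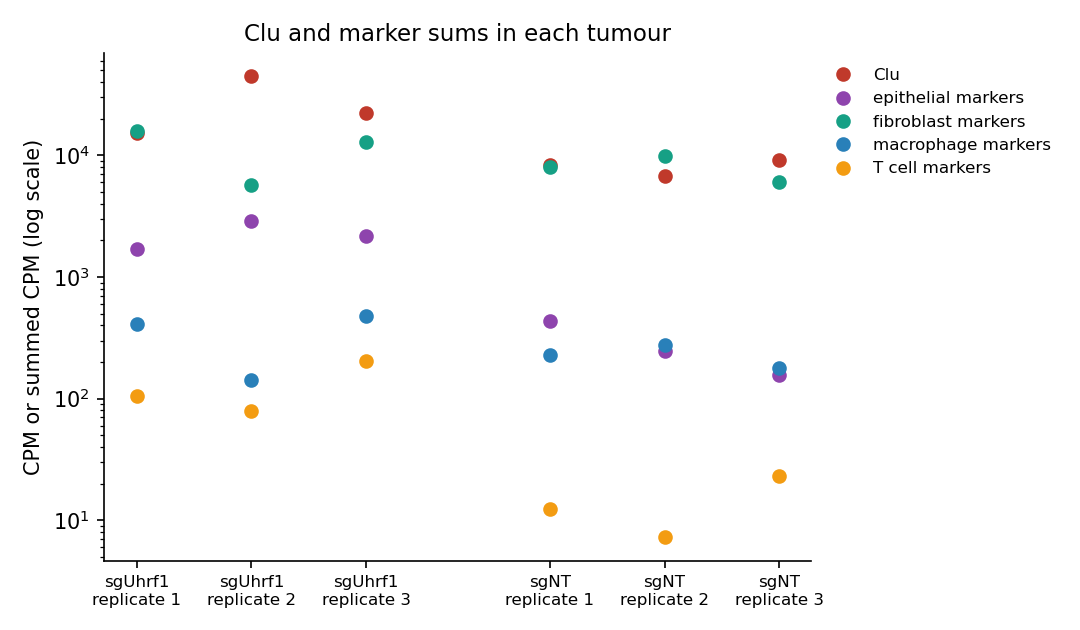
CPM of Clu and summed CPM of marker genes in each tumour on a log scale, with the 3 sgUhrf1 tumours on the left and the 3 sgNT tumours on the right. Clu and the epithelial sum are both highest in sgUhrf1 replicate 2, at 44835 and 2867 CPM, where the fibroblast sum, mostly Col1a2, is 5651 CPM, the lowest of all 6 tumours.

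The 5 genes whose log2 CPM followed Clu most closely over the 6 tumours were chosen among 4378 candidates for that likeness, so the correlations are high by choice, and they also reflect the difference between groups. Fam160a2, a subunit of an endosome transport complex, had a Pearson r of 0.996, with 94.8, 141 and 109 CPM in sgUhrf1 tumours and 70.6, 66.4 and 70.7 CPM in sgNT tumours. It had the same order of sgUhrf1 tumours as Clu at a smaller change (log2 0.73 ± 0.19, edgeR adjusted p = 0.0157), a call lost in 3 of 16 alternatives (adjusted p 0.0620 to 0.0810): without sgNT replicate 2, without both muscle-rich tumours and with library totals only. Enpp3, a nucleotide-cleaving surface enzyme, had an r of 0.987, with 2.64, 4.74 and 3.72 CPM in sgUhrf1 tumours and 2.21, 1.77 and 2.12 CPM in sgNT tumours, and did not pass the test (adjusted p = 0.156). The annotated transcript CT025671.1 had an r of 0.987, with 4.58, 38.8 and 16.4 CPM in sgUhrf1 tumours and 1.10, 0.590 and 0.882 CPM in sgNT tumours (log2 4.52 ± 0.78, adjusted p = 0.00246).

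Perm1, a regulator of muscle metabolism, had an r of 0.985, with 20.4, 32.2 and 25.4 CPM in sgUhrf1 tumours and 14.96, 13.1 and 13.6 CPM in sgNT tumours. Its change (log2 0.91 ± 0.26, edgeR adjusted p = 0.0227) was no longer past the threshold without sgUhrf1 replicate 2, without sgNT replicate 2 or 3, without both muscle-rich tumours, with library totals only and with no filter (adjusted p 0.0572 to 0.104). Fcgbp, a mucus protein of goblet cells, had an r of 0.981, with 9.33, 118 and 12.03 CPM in sgUhrf1 tumours; in sgNT tumours it held 0 counts in replicates 1 and 2 and 0.353 CPM in replicate 3. By CPM, all 5 genes were highest in sgUhrf1 replicate 2 and lowest among sgUhrf1 tumours in replicate 1. The choice for likeness to Clu favours this order and the calls of these genes, so neither is a separate result. By count, Fam160a2 held 538 in replicate 1 and 497 in replicate 3.

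Around Clu on chromosome 14, 5 genes within 500 kb had a tested row. Ephx2, which encodes soluble epoxide hydrolase and lies 102.8 kb beyond the end of Clu, had 36.5, 53.5 and 39.6 CPM in sgUhrf1 tumours and 11.2, 19.5 and 7.76 CPM in sgNT tumours. It was higher with no overlap (log2 1.75 ± 0.35, edgeR adjusted p = 0.00451). By CPM its sgUhrf1 tumours stood in the same order as those of Clu, but by count replicate 1 (207) stood above replicate 3 (181). Ptk2b, a focal adhesion family kinase, had 133, 156 and 154 CPM in sgUhrf1 tumours and 118, 143 and 157 CPM in sgNT tumours. Trim35, a ubiquitin ligase family member 315.5 kb beyond Clu, was lower (log2 -0.66 ± 0.20, adjusted p = 0.0290), but lost the call when any sgUhrf1 tumour, sgNT replicate 2 or 3, or both muscle-rich tumours were left out (adjusted p 0.0550 to 0.203). Elp3, a subunit of Elongator (log2 -0.42, adjusted p = 0.0997), Esco2, a cohesin acetyltransferase (log2 0.41, adjusted p = 0.549), and Ptk2b (log2 0.08, adjusted p = 0.745), did not pass. The nearest annotated protein-coding genes, Gulo at 5.2 kb beyond Clu and Scara3 at 14.5 kb before it, had no row of their own and were not analysed here.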

How the data were processed

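The files deposited by the authors hold raw counts, 1 table per tumour: read pairs assigned to each annotated row, with no scaling. Libraries were made from RNA purified with poly-T beads, per the labels' protocols. Per the submitters' processing notes, fastp, STAR and featureCounts were used with GRCm38; featureCounts was version 2.0.1, per the file headers, run with an annotation in GRCm39 coordinates, without strand. Row names are therefore mostly wrong for the reads. Each row was renamed by position where its intervals cover at least 50 bp of exons of only 1 GENCODE M21 gene, not counting small RNA genes. The 13419 rows so named held 46.3% of counts, while shared rows held 51.8% and rows over no exon 1.08%. Where several rows name a gene, the one with most counts stands for it.

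Rows were tested with edgeR 4.0.16 in R 4.3.3 (quasi-likelihood F test, TMM scaling, filterByExpr with minimum count 10 and total 15, Benjamini-Hochberg adjustment over 10503 rows, threshold 0.05); SE is the log2 fold change divided by the square root of F. DESeq2 1.42.0, limma-voom (limma 3.58.1) and other scalings and filters were alternatives. Totals of 5462555 to 6375069 counts per tumour set the precision. Shares of counts are a description. Genes named are Clu, the 5 most counted rows of each tumour and the rows next to Clu in rank, the 5 tested genes of mean log2 CPM of at least 1 (prior count 2) most like Clu, up to 4 called members of each list by mean CPM, or up to 2 where none passed (for receptors, every tested member), and tested genes within 500 kb. Lrp2, Plxna4, Hc, C1qc, Cfp, C8a, Areg, Anxa1, Anxa3, Cxadr, Pdgfrb, Vwf and the rows of larger spread were named after their values were seen. The result for 1 listed gene is not reported here. Clu and the lists were chosen with earlier results of these data known.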

Additional observations from a re-analysis of the deposited data

How the results depend on the processing

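Clu was chosen by its count in these tumours, so its repeated passing is no independent support; it was past the threshold and higher in sgUhrf1 tumours in all 16 alternatives, with log2 fold changes of 1.22 to 2.06 and edgeR, DESeq2 or limma adjusted p-values of 2.51e-12 (no filter) to 0.0451 (without sgNT replicate 2). The edgeR adjusted p of 2.51e-12 with no filter lay far below the 0.00862 of the main fit and is read with caution. Leaving out 1 tumour at a time gave 1.22 to 2.06 for Clu, 0.854 to 2.29 points for its share, 1431 to 2021 rows higher and 1259 (without sgNT replicate 2) to 1908 rows lower. Library sizes without the Clu row, an alternative chosen after seeing the data, left Clu past the threshold. Without the 2 muscle-rich tumours, sgUhrf1 replicate 1 and sgNT replicate 2, 1094 rows were higher and 771 lower, with fewer tumours. Library totals without TMM moved the median of all rows by -0.16 and no filter moved it by 0.10; Clu stood 1.76 and 1.58 above the median there. Share differences were 1.94 points without mitochondrial rows and 3.77 among rows named to 1 gene. The sum of all rows that touch only Clu is the same single row.

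Replicate numbers did not pair the tumours (correlations of same-numbered deviations -0.09, -0.02 and 0.05); sgUhrf1 replicate 1 was most like sgNT replicate 2 (0.12). With a replicate block Clu stood at 1.63 (adjusted p = 0.0115), 1838 rows were higher and 1807 lower, and Hsf1 (0.0621), Perm1 (0.0518) and Trim35 (0.0562) were no longer past the threshold.

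Sign changes occurred for genes that did not pass the test with all 6 tumours, and their cause was not tested. Ckm passed with its sign turned without sgNT replicate 2 (5.73, adjusted p = 0.0253), and also when both muscle-rich tumours were left out (3.49, adjusted p = 0.0267). Leaving out 1 tumour at a time gave -2.48 to 5.73 for Ckm, -3.38 to 4.70 for Atp2a1, -0.75 to 1.46 for Retn and -0.053 to 0.17 for Ptk2b. Ckm (-0.19) was 2.47 with limma-voom, 3.10 with the block and 3.49 without the muscle-rich tumours. Atp2a1 (-0.06) was 0.65, 0.36 and 1.39 under the same alternatives. Retn was -0.0075 with limma-voom and Ptk2b -0.081 with library totals. Of 41 other genes tested under the alternatives, 25 kept their call in every alternative in which they were tested. Not all genes were tested in each, which left 644 pairs of gene and alternative. Depth limits rows of few counts, such as Lrp2, rather than Clu.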
